A study of Pimephales promelas with 139 samples.

Results

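Fathead minnow (Pimephales promelas) larvae held at 1.2 ng/L ethinyl estradiol were compared with larvae held in control water at 0 ng/L. The groups follow the labelled concentration, which gives 30 larvae at 1.2 ng/L and 29 control larvae, 59 of the 139 libraries of the series. Both groups entered static water 48 h after hatching, stayed in it for 48 h and were frozen whole at an age of 96 h, with 1 larva behind each library. They came from 3 experiments: each held 10 larvae at 1.2 ng/L, and experiments 1, 2 and 3 held 10, 9 and 10 control larvae. Larvae are named here by the number in their title. The labels name no solvent for either group and do not tie larvae to vessels or parents. The p-values therefore reflect the spread between single libraries, part of which may be technical. No allele, transgene or sex is given for either group.

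Ethinyl estradiol is a synthetic estrogen used in contraceptive pills that reaches rivers with treated sewage. In fish it binds nuclear estrogen receptors, which then act on target genes as transcription factors. The liver is the best known responding organ: under estrogen it makes egg proteins such as vitellogenin, the yolk precursor, also in juveniles and males, and this is why that protein and its mRNA serve as markers of exposure. The deposited table names transcripts by identifier alone, and 0 of its 37085 identifiers matched the RefSeq gene table of the species, which lists 64593 genes. No transcript below is therefore given a gene name, a role or a sequence, vitellogenin was not looked up, and the tissue could not be checked against marker genes. In RNA of a whole larva, more cells that express a transcript and more of its RNA per cell cannot be told apart.

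Total counts ran between 10468432 and 30301015 per larva at 1.2 ng/L (median 23933554.5) and between 11651986 and 30553315 per control larva (median 23604136). At these depths 1 read corresponded to between 0.0324 and 0.0913 CPM, that is, the count per M counts of the library, with the library total scaled by edgeR's TMM factor. Of the 37085 transcripts, 32627 passed the filter on low counts and were tested, and 4458 did not. The library of larva 53 at 1.2 ng/L (experiment 3) stood apart. It held 34800 transcripts with a read, against at least 36157 in every other library. Among transcripts with a mean of at least 1 CPM, it had the lowest or highest level of the 59 libraries in 11917. Over the same transcripts it correlated with the median profile of its group and experiment at 0.86. The calls against control with their log2 changes, the comparison of spread and the number of slope calls are also given without it. The other counts, shares, intervals and correlations below include it.

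At 1.2 ng/L, 4 transcripts rose and 0 fell, which is 0.0123% of the transcripts tested. FMt030408, FMt030407 and FMt030406, which have consecutive identifiers, rose by 25.9-, 20.4- and 13.6-fold, and FMt019919 rose by 2.13-fold. The deposited files do not say how reads that match several similar transcripts were assigned, so the 3 consecutive transcripts may share reads. Calls are those of the quasi-likelihood test of edgeR after Benjamini-Hochberg adjustment. At an unadjusted p under 0.05, 710 transcripts were higher, the 4 among them, and 359 were lower, together 3.28% of those tested.

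FMt030408 ran between 0.737 and 33.2 CPM in the 1.2 ng/L larvae, around a median of 10.5 CPM. In the control larvae it ran between 0.17 and 1.02 CPM around a median of 0.427 CPM. The groups overlapped through 2 exposed larvae, and the other 28 lay above every control. The means were 12.3 ± 8.07 CPM (SD, n = 30) at 1.2 ng/L and 0.475 ± 0.215 CPM (SD, n = 29) in controls. The log2 change was 4.69 ± 0.27 (SE), with a 95% interval of 4.15 to 5.23 and an edgeR adjusted p of 2.57e-20.

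FMt030407 ran between 0.0609 and 5.86 CPM at 1.2 ng/L (median 2.12 CPM), against 0 to 0.341 CPM in controls (median 0.0987 CPM). It had no read in 7 of the 29 control larvae and 3 reads or fewer in 21, whereas the 1.2 ng/L larvae held a mean of 51.8 reads. Of the 30 exposed larvae, 27 lay above every control. The log2 change was 4.35 ± 0.34 (SE; edgeR adjusted p = 9.19e-15). FMt030406 ran between 0.0609 and 3.33 CPM at 1.2 ng/L (median 1.25 CPM), against 0 to 0.393 CPM in controls (median 0.078 CPM), where 9 larvae had no read. For this transcript 26 of 30 exposed larvae lay above every control, and the log2 change was 3.77 ± 0.35 (SE; edgeR adjusted p = 1.26e-11).

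FMt019919 moved less and overlapped more. It ran between 0.273 and 1.66 CPM at 1.2 ng/L (median 0.741 CPM), against 0.0833 to 0.857 CPM in controls (median 0.371 CPM). Only 11 of the 30 exposed larvae lay above every control. The means were 0.777 ± 0.293 CPM (SD, n = 30) at 1.2 ng/L and 0.364 ± 0.193 CPM (SD, n = 29) in controls, with a log2 change of 1.09 ± 0.17 (SE; edgeR adjusted p = 0.000223). At a mean of 18 reads in exposed larvae and 8.62 reads in controls, counting error alone gives coefficients of variation of 24.6% and 34.8%, against the measured 37.8% and 53%.

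**Figure D1:**
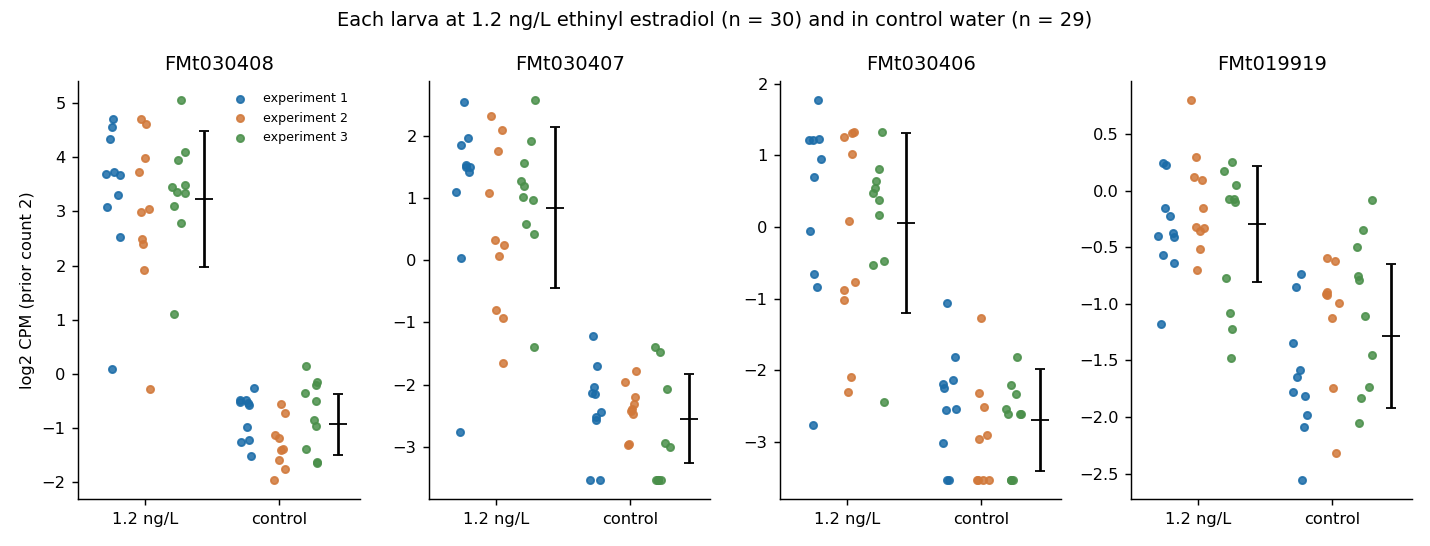
Level of each called transcript in every larva, 1.2 ng/L left and control right in each panel, as log2 CPM with a prior count of 2 (y axis); colours mark the experiments and bars the group mean ± SD. FMt030408 separates 28 of the 30 exposed larvae from every control, while FMt019919 separates 11.

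The identifiers on either side of the called ones were not called. FMt030409, next to FMt030408, averaged 32.5 ± 4.79 CPM at 1.2 ng/L and 32.4 ± 4.79 CPM in controls, a log2 difference of 0.01 with a 95% interval of -0.10 to 0.11. FMt030405, on the other side, averaged 58.6 ± 8.67 and 61.4 ± 9.53 CPM in exposed and control larvae, with an interval of -0.19 to 0.06. For the neighbours of FMt019919 the intervals were -0.10 to 0.24 (FMt019918) and -0.20 to 0.20 (FMt019920).

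**Figure D2:**
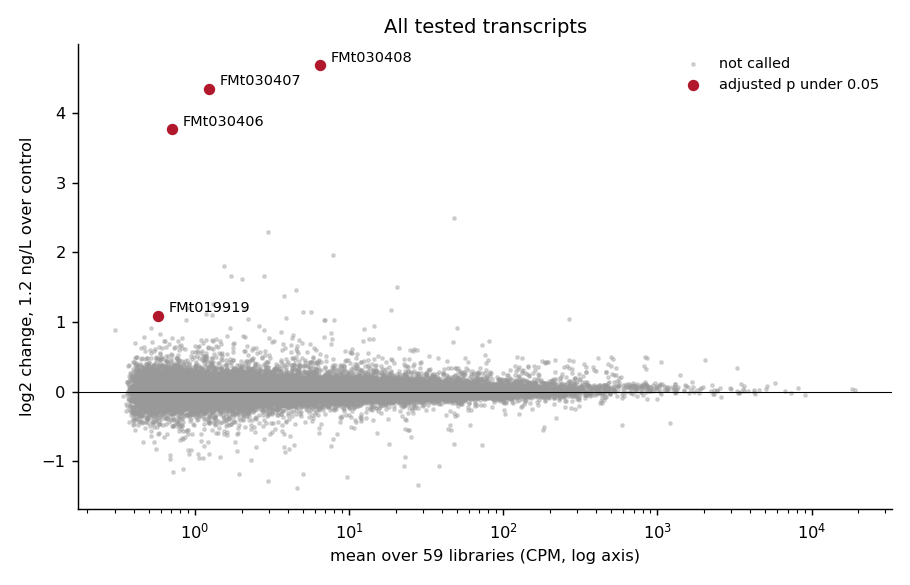
Log2 change at 1.2 ng/L over control (y axis) against the mean level over the 59 libraries in CPM on a log axis (x axis), 1 point per tested transcript; the 4 called transcripts are marked and named. FMt030406, FMt030407 and FMt030408 lie above the rest, at 3.77, 4.35 and 4.69, and FMt019919 lies at 1.09, among uncalled transcripts of similar change.

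Larvae differed widely in the size of the response. Across the 30 exposed larvae FMt030408 spanned 45.1-fold from lowest to highest, and the upper quartile was 2.22 times the lower. Its coefficient of variation was 65.7%, where counting error at a mean of 277.1 reads gives 6.19%. FMt030407 and FMt030406 varied by 67.7% and 68.5%, with counting errors of 14.2% and 19.0%. In control larvae FMt030408 varied by 45.3%, where counting error at a mean of 11.3 reads gives 30.5%. The control values of FMt030407 and FMt030406, at means of 2.59 and 2.17 reads, varied by 89.2% and 108.7%, more than those of the exposed larvae, where counting error gives 64.5% and 70.5%. On the log2 scale with a prior count of 2, the SD of FMt030408 within experiments was 1.29 at 1.2 ng/L and 0.52 in controls. It was 1.31 and 0.71 for FMt030407, 1.29 and 0.71 for FMt030406, and 0.51 and 0.60 for FMt019919. The control SDs of FMt030407 and FMt030406 depend on that prior, since 7 and 9 control larvae had no read and share 1 floor value. The difference in spread with a smaller prior is given below.

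Larvae 18, 33 and 68 lay at or near the control range. Larva 18 of experiment 1 had 16 reads of FMt030408, 0.975 CPM with an exact Poisson 95% interval of 0.557 to 1.58 CPM that covers counting error only. It had 1 read each of FMt030407 and FMt030406 (0.0609 CPM), below the control median of both. Larva 33 of experiment 2 had 19 reads of FMt030408 (0.737 CPM), 6 of FMt030407 (0.233 CPM) and 3 of FMt030406 (0.116 CPM). These were the 2 larvae of 30 that lay above every control for none of the 4 transcripts.

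Larva 68 of experiment 3 was intermediate. Its FMt030408 level of 2.06 CPM, from 63 reads, exceeded every control, but FMt030407 at 0.294 CPM (9 reads) and FMt030406 at 0.0979 CPM (3 reads) did not. Larva 43 of experiment 2 lay within the control range for FMt030406, at 0.147 CPM from 4 reads. Its 3.68 CPM of FMt030408 and 0.957 CPM of FMt030407 exceeded every control but lay below the lower quartiles of the exposed larvae, 7.06 and 1.11 CPM. FMt019919 lay above the control median in these larvae: larva 18 had 0.67 CPM, larva 33 had 0.814 CPM, larva 68 had 0.946 CPM, and larva 43 had 1.66 CPM, the highest of all 30. The exposed median of FMt019919 was 0.741 CPM, and the exposed lower quartile, 0.595 CPM, also exceeded the control median of 0.371 CPM. Lying above that median therefore hardly sets these larvae apart. The counting interval of larva 18, from 11 reads, was 0.335 to 1.2 CPM and includes the control median. Those of larvae 33, 68 and 43 began at 0.504, 0.634 and 1.21 CPM, above it. Larvae 18 and 33 did not exceed the highest control, 0.857 CPM.

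Set against controls of their own experiment, larvae 18 and 33 were above control for FMt030408. Controls of experiment 1 reached 0.75 CPM and those of experiment 2 reached 0.595 CPM, so 30 of 30 exposed larvae exceeded every control of their experiment for this transcript. These maxima over 10 and 9 controls were easier to exceed than the 1.02 CPM over all 29. How many of all transcripts reach 30 of 30 by this measure was not counted. The margin of larva 33 was 0.737 against 0.595 CPM, and the counting interval of its 19 reads, 0.443 to 1.15 CPM, includes the control value. The interval of larva 18, 0.557 to 1.58 CPM, likewise includes the 0.75 CPM of its highest control. By the same within-experiment measure 2 exposed larvae did not exceed their controls for FMt030407, 4 did not for FMt030406, and 7 did not for FMt019919.

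At the other end, larva 52 of experiment 3 was highest in FMt030408, at 33.2 CPM from 686 reads, and in FMt030407, at 5.86 CPM. Its FMt019919 level of 0.387 CPM was the fourth lowest of the exposed larvae and within the control range. The 3 consecutive transcripts together had 857 reads in larva 52, against 18 in larva 18, and 6 to 34 reads in the control larvae. Counted over larvae, 9 of 30 lay above every control in 4 of the 4 called transcripts, 18 in 3, 1 in 2 and 2 in 0.

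**Figure D3:**
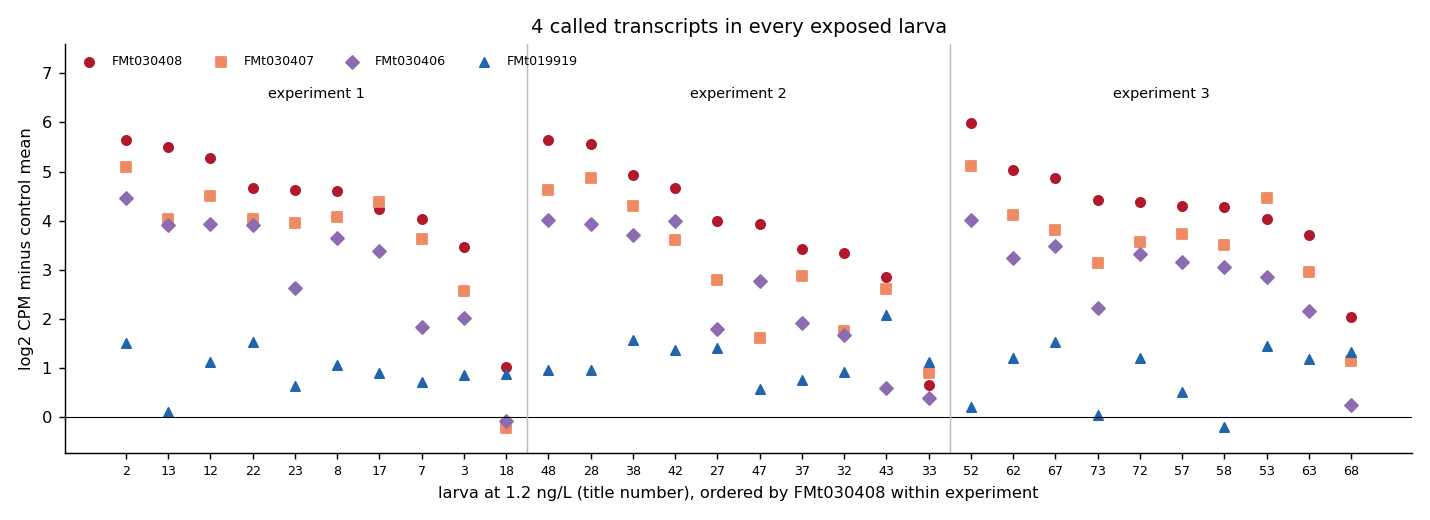
Log2 CPM of the 4 called transcripts minus the control mean (y axis) in each of the 30 larvae at 1.2 ng/L, ordered within experiments by FMt030408 (x axis, larva number). FMt030407 and FMt030406 descend with FMt030408 toward larvae 18, 33 and 68, while FMt019919 keeps no such order.

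The libraries of the low larvae were not alike. The measures are again those over transcripts with a mean of at least 1 CPM. Larva 33, with 26397605 counts, correlated with the median profile of its group and experiment at 0.978. It was extreme in 330 transcripts, rank 55 of the 59 libraries from most to fewest. Larva 68, with 30301015 counts, correlated at 0.978 and was extreme in 440. Larva 18, with 17307160 counts, correlated at 0.95, the second lowest of the 30 after larva 53, and was extreme in 2534 transcripts, rank 3 of 59. The part of this difference between libraries in the low response of larva 18 was not tested. Larva 53 itself had 8.44 CPM of FMt030408, between the group's lower and upper quartiles of 7.06 and 15.7 CPM.

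Whether spread between larvae differed between the groups was tested across all transcripts with limma, on absolute deviations of log2 CPM from the median of the same group and experiment. FMt030408 deviated by a mean of 0.89 at 1.2 ng/L and 0.43 in controls, a difference of 0.46 ± 0.18 (SE; unadjusted p = 0.0145). FMt030406 deviated by 1.01 at 1.2 ng/L and 0.55 in controls, a difference of 0.45 ± 0.19 (unadjusted p = 0.0172), and FMt030407 by 0.90 and 0.54, a difference of 0.37 ± 0.20 (unadjusted p = 0.0745). FMt019919 differed by -0.07 ± 0.10 (unadjusted p = 0.491). Of 32627 transcripts 0 passed in limma after Benjamini-Hochberg adjustment (0% called, adjusted p = 0.999 for these 4), and 963 had an unadjusted p under 0.05, 740 more variable at 1.2 ng/L and 223 less. Without larva 53 the numbers were 454 and 472, and the share of transcripts with the larger spread at 1.2 ng/L was 48.8%, against 64.6% with it. For FMt030407 and FMt030406 the difference in spread was -0.01 and 0.04 with a prior count of 0.5. Control larvae held a mean of 2.59 and 2.17 reads of these transcripts.

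The 3 consecutive transcripts varied together across the 30 exposed larvae. They may share reads, and shared reads would by themselves make their levels move together. The correlations and p-values that follow are therefore no evidence of 3 separate responses, and sharing was not tested. With experiment means removed, log2 CPM of FMt030408 and FMt030406 correlated at a Pearson r of 0.923 and a Spearman rho of 0.921, FMt030408 and FMt030407 at 0.91 and 0.832, and FMt030407 and FMt030406 at 0.877 and 0.862. Each of these 6 coefficients had a permutation p of 1e-05, the smallest that 100000 permutations within experiments can give, and an adjusted p of 3.33e-05 over 10 relations. Without the 2 larvae farthest from the median of the x axis the Pearson r was 0.907, 0.865 and 0.797 for these pairs, and without larvae 18, 33 and 68 it was 0.876, 0.817 and 0.749. Within experiments 1, 2 and 3 the r of FMt030408 and FMt030407 was 0.957, 0.877 and 0.902. The 10 larvae lowest in FMt030408 were also the 10 lowest in FMt030407 and held 9 of the 10 lowest in FMt030406. The 10 highest in FMt030408 held 7 of the 10 highest in FMt030407 and 8 of the 10 highest in FMt030406.

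For FMt019919 no correlation passed. Its r was -0.12 with FMt030408 (rho -0.07), 0.04 with FMt030407 (rho 0.11) and -0.07 with FMt030406 (rho 0.02), with adjusted permutation p-values of 0.823 for each r. Within experiments 1, 2 and 3 its r with FMt030408 was 0.08, -0.11 and -0.33. Library depth was set against the levels in the same way. The r of log2 total counts was -0.09 with FMt030408, -0.11 with FMt030407, -0.06 with FMt030406 and 0.19 with FMt019919, and the rho was -0.13, -0.16, -0.11 and 0.34. None passed, with adjusted permutation p-values of 0.727 or more for r and of 0.145 or more for rho. In experiment 3 alone the r of depth with FMt030407 was -0.68 (unadjusted permutation p = 0.022).

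**Figure D4:**
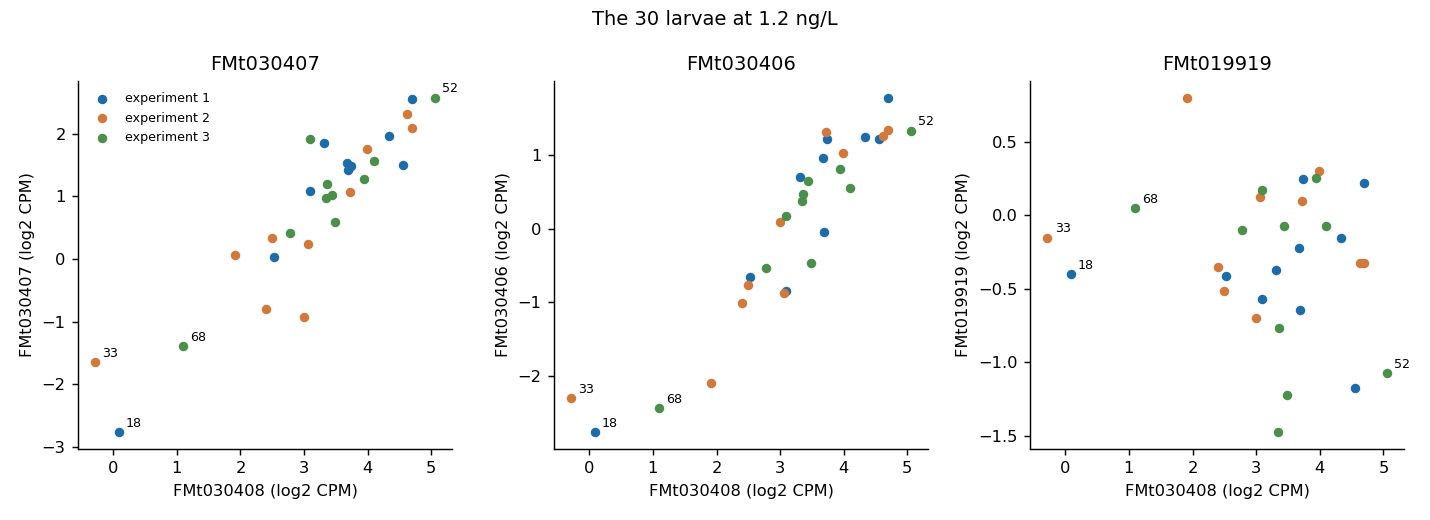
Levels of FMt030407, FMt030406 and FMt019919 (y axes) against FMt030408 (x axes) in the 30 larvae at 1.2 ng/L, both as log2 CPM with a prior count of 2 and coloured by experiment, with larvae 18, 33, 68 and 52 numbered. The first pair of panels follows a line, and the third does not. With experiment means removed, which the plotted points do not show, the Pearson r was 0.91, 0.923 and -0.12.

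All 4 rises had the same direction in each of the 3 experiments. This agreement is no separate evidence, since the calls come from a fit over the same experiments. FMt030408 averaged 13.3 ± 7.85 CPM at 1.2 ng/L and 0.515 ± 0.163 CPM in controls of experiment 1 (SD, n = 10 and 10). In experiment 2 it averaged 11.1 ± 8.66 CPM in exposed larvae and 0.338 ± 0.14 CPM in controls (SD, n = 10 and 9), and in experiment 3 it averaged 12.5 ± 8.38 CPM in exposed larvae and 0.558 ± 0.269 CPM in controls (SD, n = 10 and 10). Differences in mean log2 CPM (prior count 2) were 4.16, 4.26 and 4.12 for FMt030408, 3.45, 2.83 and 3.86 for FMt030407, 2.74, 2.69 and 2.82 for FMt030406, and 1.29, 1.02 and 0.63 for FMt019919. In edgeR's test of group by experiment 0 of 32627 transcripts passed (0% called), 585 had an unadjusted p under 0.05, and limma-voom also gave 0. The unadjusted p-values of FMt030408, FMt030407, FMt030406 and FMt019919 in that test were 0.733, 0.739, 0.936 and 0.161.

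The call of FMt019919 needed more than 1 experiment. It was not called without experiment 1 (log2 change 0.91, edgeR adjusted p = 0.388), without experiment 2 (1.06, adjusted p = 0.167) or in any experiment alone, where the log2 change was 1.49, 1.15 and 0.69. FMt030408 was called in each experiment alone, at log2 changes of 4.69, 4.99 and 4.48. With each of the 59 libraries left out in turn the 4 transcripts were called every time, with log2 changes between 4.6 and 4.75 for FMt030408 and between 1.04 and 1.16 for FMt019919. Without larva 53 they were 4.71, 4.32, 3.77 and 1.08.

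In a scaling of all libraries, the SD of log2 CPM of FMt030408 (prior count 2) within experiments was 0.52 in controls. Over 0.12, 1.2, 2.5, 5 and 10 ng/L it was 0.83, 1.29, 0.64, 0.87 and 0.52. From 1.2 ng/L upward the lowest and highest larva of a group differed by 45-, 7.49-, 6.92- and 4.03-fold, in groups of 30, 18, 17 and 28 larvae. For FMt030407 these ranges were 96.7-, 18.3-, 11.2- and 3.88-fold, and for FMt030406 they were 55.1-, 10.4-, 6.15- and 6.87-fold. For FMt019919 the SDs were 0.60, 0.59, 0.51, 0.39, 0.40 and 0.39 over controls and the same concentrations. These differences in spread between concentrations were not tested, and ranges grow with the number of larvae. At 1.2 ng/L the lowest larva was 33 for FMt030408 and 18 for FMt030407 and FMt030406, both at or near the control range. In the scaling of the 59 libraries FMt030408 was at 0.737 CPM in larva 33. After larvae 18, 33 and 68 the lowest was larva 43, at 3.68 CPM. The ranges and SDs at 1.2 ng/L include these larvae.

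Outside the 4 transcripts, changes at 1.2 ng/L were small or not resolved. The 95% interval of the change lay within 1.5-fold in either direction for 29540 transcripts (90.5%) and within 2-fold for 32084 (98.3%). Among the 4259 transcripts with a mean under 1 CPM these shares were 66.9% and 96.4%, and among the 13966 at 10 CPM or more they were 97.6% and 99.4%. The median log2 change over all transcripts was 0.00 and the median SE 0.10. The direction was the same in 3 experiments for 8912 transcripts (27.3%).

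At least 15 of the 30 exposed larvae lay above every control for 3 transcripts, FMt030406, FMt030407 and FMt030408, and below every control for 0. At least 11 did so for 7 transcripts above and 3 below (FMt041651, FMt022870 and FMt039759, named after their values were seen), and at least 5 for 827 above and 894 below.

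The smallest p among uncalled higher transcripts belonged to FMt025820, at 59.4 ± 42.9 CPM (SD, n = 30) in exposed larvae and 35 ± 13 CPM (SD, n = 29) in controls. It ran between 25 and 192.7 CPM at 1.2 ng/L (median 41.2 CPM), against 22.1 to 95.4 CPM in controls (median 31.6 CPM), and 4 exposed larvae lay above every control. Its log2 change was 0.71 ± 0.16 (SE; edgeR adjusted p = 0.43). FMt005849 followed, at 8.32 ± 3.68 CPM in exposed larvae and 5.81 ± 1.82 CPM in controls (adjusted p = 0.756). On the other side FMt002788 averaged 93.3 ± 30.9 CPM at 1.2 ng/L and 109.6 ± 32.3 CPM in controls, a log2 difference of -0.26 ± 0.07, and FMt041475 averaged 142.4 ± 41.1 and 166.1 ± 44.4 CPM in exposed and control larvae, -0.24 ± 0.06. Both had an edgeR adjusted p of 0.756. All 4 differences had the same direction in the 3 experiments. This is no separate evidence, since the p-values that picked them come from a fit over the same experiments. FMt002788 and FMt041475 also belong to the list from other concentrations that follows.

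A list of 20 transcripts chosen for earlier results of these data at other concentrations was read at 1.2 ng/L. Those comparisons use the same control larvae, so the list is no independent evidence. The list leaves out the 4 called transcripts, so it was fixed beforehand that 0 of its members would be called. Those 4, FMt030408, FMt030407, FMt030406 and FMt019919, averaged 173, 35.9, 22.5 and 3.39 CPM at 10 ng/L. In controls of the same scaling they averaged 0.469, 0.105, 0.0877 and 0.359 CPM. Of the 18 list members tested, 6 were higher and 3 lower at an unadjusted edgeR p under 0.05, against 710 and 359 of 32627. Their median log2 change was -0.04, beside 0.00 over all transcripts. The consecutive identifiers FMt007494 to FMt007497, all among the 6 higher members, had log2 differences of 0.49, 0.49, 0.49 and 0.50. They may share reads, so they may not count as separate members. FMt007497 averaged 141.6 ± 51.2 CPM at 1.2 ng/L and 101.5 ± 41.5 CPM in controls (edgeR adjusted p = 0.908). FMt036339 had medians of 2.14 CPM in exposed larvae and 1.9 CPM in controls, with a 95% interval of the log2 change of -0.06 to 0.33. FMt046088, also among the 6 higher members, had a log2 difference of 1.67 ± 0.47 (edgeR adjusted p = 0.917). It had 3 larvae above every control, up to 28.8 CPM, while its medians were 0.554 CPM at 1.2 ng/L and 0.568 CPM in controls.

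Finally, each transcript was tested for a slope on the response level of a larva, the mean log2 CPM of FMt030406, FMt030407 and FMt030408, within the 30 exposed larvae. By edgeR with Benjamini-Hochberg adjustment 9 of 29859 transcripts passed (0.0301% called), 1 rising with the response and 8 falling, and 468 rising and 1088 falling ones had an unadjusted p under 0.05. None of the 9 was called against control. FMt014164 had the steepest fall, a slope of -1.12 ± 0.18 log2 units per unit of response level (SE; adjusted p = 0.00332). It ran between 0.196 and 46.2 CPM at 1.2 ng/L around a median of 0.932 CPM, and between 0.235 and 54.9 CPM in controls around 1.65 CPM. Larvae 18, 33 and 68 had 28.1, 14.4 and 15.3 CPM of it, and larva 52 had 0.387 CPM. Its highest and lowest levels, however, were in larvae 37 and 3, whose response levels were close, at 0.677 and 0.627. Larva 48, with a response level of 2.69, had 7.36 CPM. FMt004517 was next, at -0.51 ± 0.09 (adjusted p = 0.0254), with 7.13 CPM in larva 18 beside a median of 0.911 CPM. The single rising transcript was FMt038546, at 0.44 ± 0.09 (adjusted p = 0.0479), with 0.244, 0.349 and 0.424 CPM in larvae 18, 33 and 68 beside a median of 0.793 CPM. Its lowest level, 0.242 CPM, was in larva 63, and larva 52, the highest in FMt030408, had 0.775 CPM. FMt038546 was called in only 12 of the 30 fits that each left out 1 larva.

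Most of these calls were lost without larva 18. Its library, as given above, was also extreme in 2534 transcripts, rank 3 of 59. The part of this deviation in the slope calls was not tested. With single larvae left out 1 to 37 transcripts passed, and without larva 18 it was 1, FMt006618, which is named after its values were seen. That transcript fell by 0.39 ± 0.06 (SE) per unit of response level (edgeR adjusted p = 0.00332). FMt006618 was called with any of the 30 larvae left out, at slopes between -0.41 and -0.29 and edgeR adjusted p-values up to 0.049. It had 23.9, 25.2 and 51.3 CPM in larvae 18, 33 and 68, beside a median of 11.1 CPM at 1.2 ng/L and 10.1 CPM in controls, whose highest larva had 29.4 CPM. Without larvae 18, 33 and 68 together 0 transcripts passed, with 286 rising and 445 falling at an unadjusted edgeR p under 0.05. The slopes of the 9 kept their sign without these larvae, at -0.27 for FMt006618, -0.88 for FMt014164, -0.21 for FMt004517, 0.40 for FMt038546 and -0.34 for FMt025820, with edgeR adjusted p-values of 1. The kept sign is no separate evidence, since the remaining larvae belonged to the fit that picked the 9. FMt025820, described above, was among the 8 falling ones, at -0.41 ± 0.08, with 138, 163.1 and 81.2 CPM in larvae 18, 33 and 68.

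**Figure D5:**
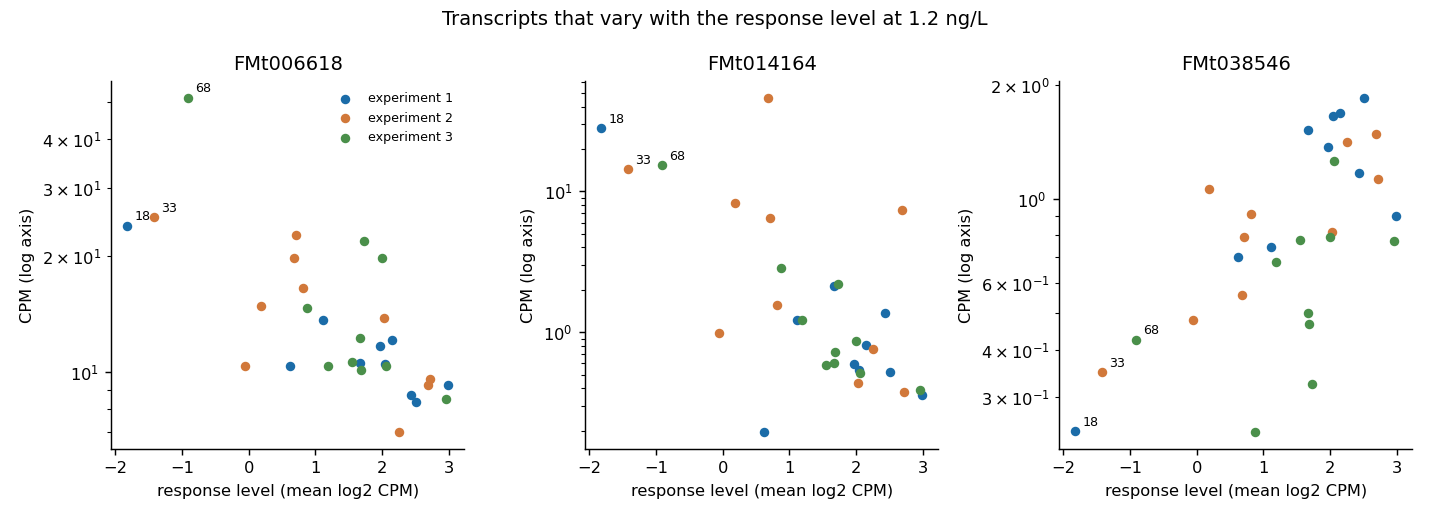
Levels of FMt006618, FMt014164 and FMt038546 in CPM on log axes (y axes) against the response level, the mean log2 CPM of FMt030406, FMt030407 and FMt030408 (x axes), in the 30 larvae at 1.2 ng/L, coloured by experiment. Larvae 18, 33 and 68 lie at the far left, at 23.9, 25.2 and 51.3 CPM of FMt006618 beside a median of 11.1 CPM.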

How the data were processed

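Whole larvae were lysed and libraries made from 250 ng of RNA with the Lexogen SENSE V2 kit, per the labels. The table the authors deposited holds raw counts of reads per transcript and library; per the series' design text, a set of known transcripts served as the mapping target. The submitters' processing notes list edgeR 3.26.8, limma 3.40.6 and bcl2fastq 2.19.1. Aligner, counter, strand use and the treatment of shared reads were not given in the sources used here. The row that has no identifier (at most 12 reads per library, 1.6e-05% of reads) was left out, and 0 columns were unmapped.

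In R 4.3.3, edgeR 4.0.16 fitted a robust quasi-likelihood model of experiment and group to the 59 libraries after filterByExpr (minimum count 10, minimum total 15) and TMM scaling. A call needs an adjusted p under 0.05 (Benjamini-Hochberg, over all transcripts tested). SEs are the log2 change over the root of its F statistic. Spread was compared with limma 3.58.1, and slopes within the exposed larvae with edgeR. The 4 fits were checked on simulated counts. For spread, the group by experiment test and most slopes the planted effects were larger than those reported here. Detection of smaller effects in these 3 fits was not checked. Libraries were compared for copies: over 841 within-group pairs the chi-square statistic of their counts exceeded its degrees of freedom 10.6 to 130 times.

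Named are every call of a short list, the identifiers beside each, the 2 uncalled transcripts with the smallest p in each direction, a list from other concentrations, for slopes the most positive call and the 2 most negative, and larvae at or below the highest control with the highest larva. The comparison, the lists and the rule were chosen with earlier results of these data known. Alternatives were DESeq2 1.42.0, limma-voom, RLE scaling, other low-count filters, a fit without experiment, a block by title number, correlated runs of title numbers, all libraries in 1 model, shallow libraries (below 0.5 times the median total) removed, experiments left out or alone, stricter thresholds, and other centres, priors and scores; leaving out larva 53, the 3 lowest larvae, or single larvae in the slope fit was added after the data were seen.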

Additional observations from a re-analysis of the deposited data

Results flagged for a closer look

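Larvae that lay far from the others of their group and experiment were looked for in each called transcript on the log2 CPM scale. This covered 24 groups of 9 or 10 larvae, exposed and control, where chance marks about 1 group in 20. In experiment 1 larva 18 lay apart as the lowest for FMt030408, at 0.975 CPM with the next larva at 5.67 CPM. The same larva lay apart for FMt030407, at 0.0609 CPM with the next at 0.939 CPM. These transcripts may share reads, so the marks of larva 18 may not be separate. In experiment 3 larva 68 lay apart as the lowest for FMt030406, at 0.0979 CPM with the next at 0.606 CPM. No control larva and no larva of experiment 2 lay apart by this measure, including larva 33, the lowest of its experiment in FMt030408. For FMt019919 no larva lay apart.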

How the results depend on the processing

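The 4 calls against control were made by RLE scaling, DESeq2, limma-voom (also with correlated runs), no low-count filter, no experiment term, all libraries in 1 model with or without larva 7 of 2.5 ng/L, no shallow libraries, stricter thresholds and without larva 53. With the title number as a replicate block 4 were called too, at log2 changes of 4.47, 4.22, 3.77 and 1.07. Over 29 same-numbered pairs the median correlation was 0.0583 and the highest 0.353, with 9 pairs over 0.1. In 5 pairs the larva correlated best with its own number. These values were not set against chance, so whether same-numbered larvae share more than a label was not tested. A mean of at least 1 CPM left 2 calls, since FMt030406 and FMt019919 were then not tested. Experiments 1, 2 and 3 alone gave 2, 2 and 1 calls and leaving out experiment 1 gave 2, in part because FMt030406 or FMt030407 then failed the filter on low counts. Single libraries left out gave 4 to 5 calls; the added one, FMt044498, came without larva 7 of 1.2 ng/L. Tests of interaction and spread gave 0 under each alternative run, and the difference in spread of FMt030407 was -0.0115 with a prior count of 0.5. The 9 slopes became 5 with limma-voom (4 of the 9 among them), 4 on FMt030408 alone, 23 without the experiment term (8 of the 9), 0 in controls (which held means of 2.17 to 11.3 reads of the 3 transcripts, so this 0 says nothing on stability), 0 without the 3 lowest larvae, and 1 to 37 with single larvae left out; 1 came without larva 18 and 37 without larva 33. The slope calls also numbered 14 without larva 2 or 67, 18 without larva 3 or 48, 4 without larva 28 or 38, 24 without larva 32, 28 without larva 37, 27 without larva 43, 17 without larva 53 and 20 without larva 68. The cause of these moves was not tested. Levels under 0.1 CPM of the called transcripts rest on 0 to 3 reads per library, and counting intervals cover counting error only.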
